A study of Mus musculus with 2 samples.

Results

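The cells described here are CD8 T cells from mouse tumours in which at least 1% of all counted messages came from 4 genes of the granzyme family, Gzmd, Gzme, Gzmf and Gzmg. The study made 2 single-cell RNA libraries from tumours of mice of the inbred strain C57BL/6. One carried the label Dapl1-KO and the other the label WT, so each label had 1 library and no comparison between the labels has a replicate check. Both consisted of tumour-infiltrating cells sorted for CD45, carried by blood-derived cells, and for CD90.2 (Thy1), carried by T cells and some innate lymphocytes. Time, treatment, age, the tumour line and the number of animals or tumours in each library are not given in the sources used here. A cell was a member if it had a count of Cd8a or Cd8b1 and of a CD3 chain gene, no count of Cd4 or Foxp3, and reached the 1% share. The rule found 160 members among 5997 gated CD8 cells, of 11156 cells kept, in the library labelled Dapl1-KO, and 183 members among 4761 gated CD8 cells, of 9865 kept, in the library labelled WT. Together they made 343 of 21021 cells. The members were thus chosen by the counts of the 4 granzymes, the CD8 and CD3 genes, Cd4 and Foxp3, and the levels of these genes are given without a test.

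Granzymes are serine proteases that cytotoxic T cells and natural killer (NK) cells store in granules and release at a target cell, where perforin, the product of Prf1, lets them in. Granzymes A and B are found in mice and humans, whereas Gzmc to Gzmg are genes of the mouse that lie beside Gzmb on chromosome 14. In mice Gzmc to Gzmg are known from strongly stimulated cytotoxic T cells and from NK cells of some tissues. Serpins of the Serpinb9 family inhibit granzymes and are known to protect the killer cell from its own proteases.

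The deposited libraries held 206322042 unique molecular identifiers (UMIs, counted message molecules) over 19662 barcodes in the library labelled Dapl1-KO, and 154408101 over 16673 in the library labelled WT. They shared 13132 barcodes, and for each shared barcode only a copy with at least 2 times the UMIs of the other was kept. Of the members, 151 of 160 (94.4%) in the library labelled Dapl1-KO and 180 of 183 (98.4%) in the library labelled WT had such a shared barcode. The same held for 54.3% and 65.7% of the other gated CD8 cells. Among gated CD8 cells under 1% with a UMI of both Pdcd1 (PD-1) and Havcr2 (TIM-3), it held for 82.8% and 91.8%. The copy left out had a median of 10.8% of a member's UMIs for the library labelled Dapl1-KO and 26.5% for the library labelled WT. Dapl1, the gene named in the label, did not separate the libraries: members had 11 counts (1.83 CPM, counts per 1000000 UMIs of the cell set) in the library labelled Dapl1-KO and 8 counts (1.17 CPM) in the library labelled WT. Other gated CD8 cells had 31.1 CPM and 42.5 CPM. Counts at the 3′ end need not fall in a deleted segment, so these values do not check the label.

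The members carried the messages of CD8 T cells, with less of the summed myeloid and NK markers than other gated CD8 cells. Cd8a stood at 389 CPM and 330 CPM, Cd3g at 1610.2 CPM and 1054 CPM, and a UMI of Trac, the constant segment of the T cell receptor alpha chain, was found in 98.8% and 100% of members of the libraries labelled Dapl1-KO and WT. The 9 myeloid markers summed to 98.1 CPM and 57.9 CPM in members, against 184 CPM and 147 CPM in other gated CD8 cells. The 7 NK markers summed to 222 CPM and 117 CPM in members, against 275 CPM and 197 CPM. The 4 regulatory T markers went the other way, at 782 CPM and 481 CPM in members, against 486 CPM and 379 CPM. Of these, Foxp3 was at 0 by the rule. Of the B cell markers, Ms4a1 was at 0 in the members of both libraries, and of the dendritic markers Flt3, Clec9a and Cd209a were at 0. The 5 dendritic markers summed to 89.2 CPM and 188 CPM in members, against 91.6 CPM and 136 CPM in other gated CD8 cells, and only Ccr7, which T cells also use, was above 20 CPM. Members held many UMIs: their median was 31974.5 and 32637, against 12069 and 9910.5 in other gated CD8 cells, and 22627.5 and 21589 in gated CD8 cells under 1% that had a UMI of both Pdcd1 (PD-1) and Havcr2 (TIM-3). Cells with a doublet score in the top range made 6.88% and 2.73% of members, against 9.32% and 8.32% of other gated CD8 cells.

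Cells gated as other types, with no count of a CD8 gene, did not reach the 1% share. None of 528 CD4 T cells, 487 Foxp3 cells and 324 NK cells in the library labelled Dapl1-KO, and none of 502, 424 and 239 in the library labelled WT, reached it. These counts of 0 allow shares of up to 0.568%, 0.616% and 0.926%, and of up to 0.598%, 0.708% and 1.26%. The 4 granzymes summed to 24.2 CPM in CD4 T cells, 19.0 CPM in Foxp3 cells and 85.5 CPM in NK cells of the library labelled Dapl1-KO, and to 53.3 CPM, 27.5 CPM and 40.6 CPM in the library labelled WT. A UMI of any of the 4 was found in 23.1% and 30.7% of CD4 T cells, so a low count alone does not mark expression. Outside the gate, 23 and 40 further kept cells reached 1%, of which 22 and 38 had a CD8 gene together with Cd4 or Foxp3. Of these 23 and 40 cells, 21.7% and 22.5% had a doublet score in the top range.

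The 5 clustered granzymes closest to the members' definition share a stretch upstream of their start, shown here because they were measured together in the same cells. Each stretch comes from RefSeq for GRCm38.p6, lies on the minus strand and is printed 5′ to 3′. Capitals mark the RUNX-type motif match AACCACA (the reverse complement of TGTGGTT) and an 8-base element aligned to TGACGTCA, the cyclic AMP response element bound by CREB and ATF proteins.
Gzmd, chr14:56132627-56132773: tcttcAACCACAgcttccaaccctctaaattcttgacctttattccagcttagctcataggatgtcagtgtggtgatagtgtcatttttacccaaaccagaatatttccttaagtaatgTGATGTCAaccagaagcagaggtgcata
Gzme, chr14:56120660-56120806: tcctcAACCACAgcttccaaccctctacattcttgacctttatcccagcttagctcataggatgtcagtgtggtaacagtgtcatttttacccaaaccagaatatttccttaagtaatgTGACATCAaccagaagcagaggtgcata
Gzmf, chr14:56211462-56211608: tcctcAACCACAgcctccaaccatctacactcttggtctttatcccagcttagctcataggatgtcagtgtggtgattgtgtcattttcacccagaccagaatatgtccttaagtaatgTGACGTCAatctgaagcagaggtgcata
Gzmg, chr14:56159629-56159775: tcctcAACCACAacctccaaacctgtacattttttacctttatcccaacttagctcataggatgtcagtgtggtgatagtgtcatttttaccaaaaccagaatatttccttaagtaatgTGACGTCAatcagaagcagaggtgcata
Gzmc, chr14:56234687-56234837: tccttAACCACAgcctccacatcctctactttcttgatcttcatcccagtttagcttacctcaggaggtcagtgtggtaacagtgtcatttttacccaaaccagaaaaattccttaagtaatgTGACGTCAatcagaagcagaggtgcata
The element read TGACGTCA in Gzmf, Gzmg and Gzmc, while Gzmd carried the substitution C4T and Gzme G5A, counted from 1 at the element's 5′ end. It began 61 bases before the annotated start in Gzmd, 62 in Gzme, 82 in Gzmf, 77 in Gzmg and 57 in Gzmc. Searched on both strands of the 250 bases upstream of each start, TGACGTCA occurred in 508 of 32851 promoters (1.55%) and TGTGGTT in 1444 (4.40%). The 2 motifs do not overlap each other in these stretches. Upstream of the start, Gzmd and Gzme had 238 identical of 249 aligned bases, and Gzmf and Gzmc, the least alike of these 5 genes by identical bases, 193 of 225. Gzmd and Gzmb had 130 of 212. The Gzmb promoter window held TGTGGTT at 34 bases before the start and the AP-1 motif TGANTCA at 58, which was in none of the 5 others and in 6.75% of all promoters. A motif match is a description of the letters and not evidence of binding.

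Among members, Gzmf gave most of the counts that chose them. The summed share of the 4 genes ran over 1.0% to 11.4% of a cell's UMIs in the library labelled Dapl1-KO, with a median of 1.70%, and over 1.0% to 17.5% in the library labelled WT, with a median of 2.07%. A share of 5% or more was reached by 9 and 18 members, and 10% or more by 1 and 3. The median per cell was 10996 CPM and 15437 CPM for Gzmf, 3478 CPM and 2835 CPM for Gzmd, 2624 CPM and 2172 CPM for Gzme, and 269.5 CPM and 20.4 CPM for Gzmg. Gzmf led in 143 of 160 (89.4%) and 174 of 183 (95.1%) members, Gzmd in 9 and 6, Gzme in 7 and 1, and Gzmg in 1 and 2. All 4 genes were detected together in 106 (66.3%) and 94 (51.4%) members. Members held 67.2% and 83.3% of the Gzmd to Gzmg counts of all gated CD8 cells while holding 5.51% and 8.84% of their UMIs. Of the Gzmd to Gzmg counts of all kept cells, gated or not, members held 57.5% and 63.0%.

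**Figure D1:**
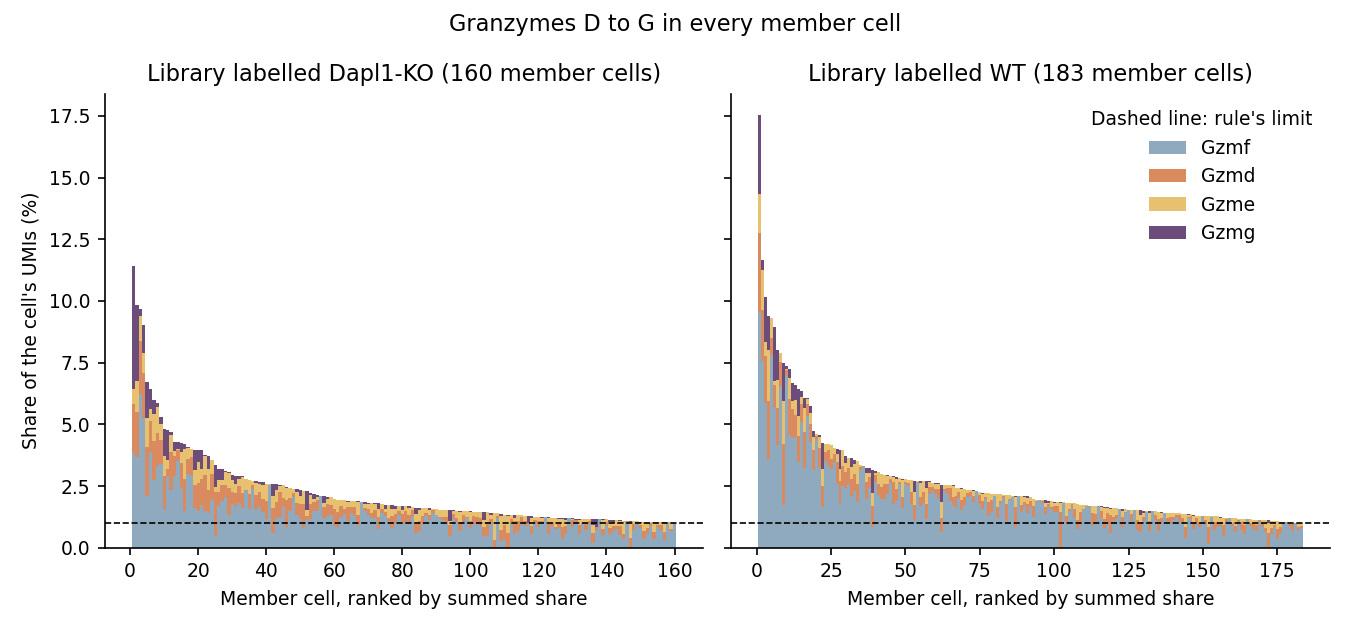
Each bar is 1 member cell, ranked by its summed share, in the library labelled Dapl1-KO (left) and the library labelled WT (right). The height is the share of the cell's UMIs (percent) from Gzmf, Gzmd, Gzme and Gzmg, stacked, with the 1% limit dashed; Gzmf fills most of most bars and the highest reach 11.4% and 17.5%.

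The 4 genes did not hold the same proportions in the 2 libraries. Messages were counted once each from their 3′ ends, so levels were not divided by length. Gzmf stood at 12410.1 CPM in the members of the library labelled Dapl1-KO and 18295 CPM in those of the library labelled WT, Gzmd at 4722 CPM and 4171 CPM, Gzme at 3336 CPM and 3044 CPM, and Gzmg at 1845 CPM and 1522 CPM. Gzmf thus made 55.6% of the 4-gene counts (exact 95% interval 55.4 to 55.9) in the library labelled Dapl1-KO and 67.7% (67.5 to 67.9) in the library labelled WT, a difference of -12.1 percentage points (-12.4 to -11.7). Intervals here and below cover counting error only. Gzmd made 21.2% and 15.4%, Gzme 15% and 11.3%, and Gzmg 8.27% and 5.63%. In the other gated CD8 cells Gzmf made 69.2% and 78.0%, and Gzmg 1.24% and 0.707%. The paralogs are alike, and reads that fit more than 1 gene could move this split: only Gzmd and Gzme shared any 91-base windows near their 3′ ends, 6 of 410 (1.46%).

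Within the members, the rank correlation of Gzmd with Gzme was higher than that of either gene with Gzmf. The rank correlation over cells between Gzmd and Gzme was 0.71 in the library labelled Dapl1-KO and 0.85 in the library labelled WT, and between Gzmd and Gzmg 0.61 in both. Between Gzmd and Gzmf it was 0.26 and 0.17, and between Gzme and Gzmf 0.18 and 0.07. The summed share correlated with Gzmc at 0.47 in both, with Prf1 at 0.35 and 0.32, with Gzmb at 0.21 and 0.28, and with Gzma at 0.07 and -0.03. These are descriptions over 160 and 183 cells that share a library and differ in depth. The cells were also chosen by the summed share of Gzmd to Gzmg, to which Gzmf gave most counts. A cell low in Gzmf is a member only if the other genes are high, which by itself lowers the correlations with Gzmf. Whether Gzmf is expressed apart from Gzmd and Gzme thus cannot be read from these values.

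Gzmg was the most unevenly spread of the 4. A UMI of it was found in 110 members (68.8%) of the library labelled Dapl1-KO and in 96 (52.5%) of the library labelled WT, and the 10 members with most Gzmg held 58.3% and 68.1% of all its counts. Members with Gzmg had 5754 CPM and 5619 CPM of Gzmd, against 2094 CPM and 2060.0 CPM in members without it. They had 6193 CPM and 5030.4 CPM of Gzmc, against 4343 CPM and 2855 CPM. Members with Gzmg were also deeper, with medians of 34828.5 and 35788.5 UMIs, against 28186.5 and 30549.

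Members had more counts than other gated CD8 cells along the granzyme cluster on chromosome 14, at very unlike levels from gene to gene. In GRCm38 coordinates, as annotated on the minus strand, the genes run Mcpt8 (chr14:56082166-56085273), Ctsg (chr14:56099881-56102574), Gzme (chr14:56117626-56120625), Gzmd (chr14:56129556-56132608), Gzmg (chr14:56156582-56159579), Gzmn (chr14:56165797-56174599), Gzmf (chr14:56205263-56211417), Gzmc (chr14:56231441-56234656) and Gzmb (chr14:56258838-56262260). Mcpt8, a protease best known from mouse basophils, had 57.9 CPM and 19.8 CPM in members, against 1.32 CPM and 1.30 CPM in other gated CD8 cells, and was found in 61 (38.1%) and 40 (21.9%) members. The other basophil and mast cell markers, Cpa3, Fcer1a and Cd200r3, were at 0 in all members. Ctsg, which encodes the neutrophil protease cathepsin G, had 12 and 14 counts (1.99 CPM and 2.06 CPM) in members, against 0.0097 CPM and 0.0142 CPM in other gated CD8 cells. Gzmn, which encodes granzyme N, had 25 and 17 counts (4.15 CPM and 2.50 CPM), against 0.155 CPM and 0.0855 CPM. The mast cell protease genes of the same family, Mcpt1, Mcpt2, Mcpt4 and Mcpt9, were at 0 in the members of both libraries. Mcpt8, Ctsg and these last genes were chosen for naming after their values had been seen.

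**Figure D2:**
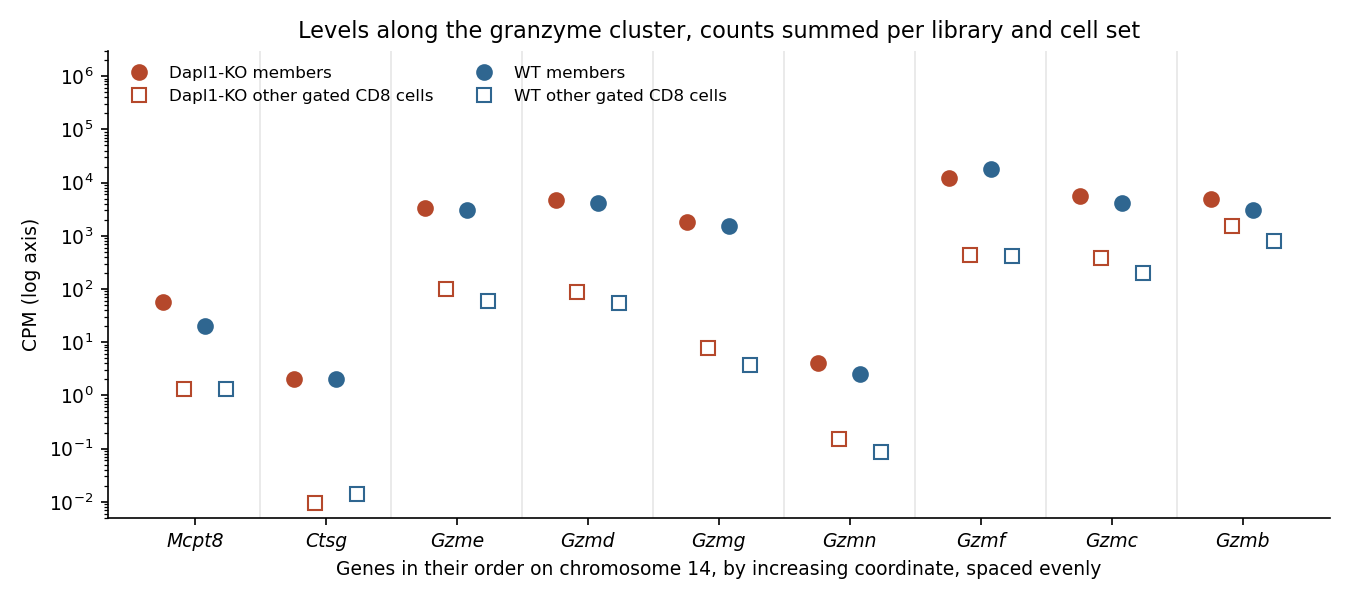
Levels (CPM, log axis) of genes of the granzyme cluster, in their order along the chromosome, in members and other gated CD8 cells of the libraries labelled Dapl1-KO and WT. Members are above other gated CD8 cells at each gene with counts, from Ctsg at 1.99 CPM and 2.06 CPM to Gzmf at 12410.1 CPM and 18295 CPM.

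Set against all other gated CD8 cells of the same libraries, the members carried more Gzmb, Gzmc and Prf1 and less Gzma and Gzmk. They also had more of a particular group of secreted and receptor genes, and far fewer naive and circulating T cell messages. Counts summed over members and over other gated CD8 cells in each library were compared with edgeR's quasi-likelihood test with the library as a term and Benjamini-Hochberg adjustment over 13626 genes. A gene was called at an adjusted p under 0.05, at least 1.5-fold, in the same direction in both libraries. Outside the genes of the rule, 647 genes (4.75%) were higher in members and 1157 (8.49%) lower, with a median log2 ratio of -0.02 over all genes. The p-values come from 2 libraries, with 1 residual degree of freedom for a gene against 9.38 borrowed from all genes. They thus lean on a spread shared over genes. A small p-value does not show that a single gene's difference was steady between the libraries. Members were the deeper cells. In the library labelled WT, 25.1% of members and 13.7% of other gated CD8 cells had Y-linked messages and no Xist or Tsix. The library term does not adjust for this.

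Gzmc, which encodes granzyme C, rose in members. In the library labelled Dapl1-KO it had 5671 CPM in members against 385 CPM in other gated CD8 cells, and in the library labelled WT 4145 CPM against 203 CPM, a fitted log2 ratio of 4.17 (18.0-fold, adjusted p = 3.34e-09). Gzmb, the main human and mouse effector granzyme, had 4994 CPM against 1514 CPM and 2996 CPM against 791 CPM (3.67-fold, adjusted p = 7.75e-08). Prf1 had 1158 CPM against 356 CPM and 615 CPM against 164 CPM (3.63-fold, adjusted p = 1.31e-07). Gzma and Gzmk lie on chromosome 13 and encode granzymes with trypsin-like activity, and both went the other way. Gzma had 103 CPM in members against 368 CPM in other gated CD8 cells of the library labelled Dapl1-KO and 56.5 CPM against 167 CPM in the library labelled WT, a fall of 3.14-fold. Gzmk had 78.2 CPM against 126 CPM and 56.2 CPM against 112 CPM, a fall of 1.72-fold. Gzmn, with the 25 and 17 counts given above, rose by a fitted log2 ratio of 4.82. Of the 6 tested granzymes outside the rule, 3 were higher and 3 lower. Gzmc, Prf1 and Serpinb9b had been named as markers of these cells with the data known, so their rise is a description.

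Several serpins were higher in members. Serpinb9b had 708 CPM against 84.4 CPM in the library labelled Dapl1-KO and 468 CPM against 34.8 CPM in the library labelled WT, an 11-fold rise (adjusted p = 9.2e-08). Serpinb9, which encodes an inhibitor of granzyme B, had 300.4 CPM against 204 CPM and 294 CPM against 166 CPM, a log2 ratio of 0.75, and Serpinb6b had a log2 ratio of 1.12. Serpine2, which encodes the secreted protease inhibitor protease nexin, had 351 CPM against 83.5 CPM and 327 CPM against 56.2 CPM (log2 2.36). Of 10 tested serpins, 5 were higher and 2 lower, with a median log2 ratio of 0.26. In the wider list of granule and exocytosis machinery 3 of 19 were higher and 2 lower, with a median of 0.17.

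Among secreted factors and receptors, Ccl9, Areg, Penk, Il1r2 and Il2ra were higher in members. Ccl9, a chemokine gene of mice, had 365 CPM in members against 76.4 CPM in other gated CD8 cells of the library labelled Dapl1-KO and 473 CPM against 67.0 CPM in the library labelled WT (log2 2.60). Areg, which encodes the epidermal growth factor receptor ligand amphiregulin, had 378 CPM against 111 CPM and 184 CPM against 25.8 CPM (log2 2.33). Penk, the precursor of enkephalin peptides, had 146 CPM against 46.4 CPM and 385 CPM against 69.7 CPM (log2 2.13). Il1r2, which encodes a decoy receptor for interleukin-1, had 193 CPM against 27.7 CPM and 198 CPM against 35.4 CPM (log2 2.70). Il2ra, the alpha chain of the interleukin-2 receptor, had 152 CPM against 30.2 CPM and 83.4 CPM against 25.9 CPM (log2 2.08), and Il12rb2, a chain of the interleukin-12 receptor, had a log2 ratio of 1.59. Of 21 cytokine and chemokine genes, 8 were higher and 3 lower (median 0.51), and of 21 cytokine receptor and feedback genes 4 were higher and 4 lower (median 0.24).

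Other genes with high ratios had other roles. Upp1, which encodes uridine phosphorylase, had 70.1 CPM against 11.6 CPM and 53.4 CPM against 4.80 CPM (log2 3.05). Gipc2, which encodes a PDZ-domain protein, had a log2 ratio of 2.79 and Nebl, the nebulette gene, 2.58. Irf8, a transcription factor of the interferon regulatory family, had 705 CPM against 260.4 CPM and 499 CPM against 131 CPM (log2 1.73). Of 26 effector and exhaustion transcription factors, 2 were higher and 3 lower, with a median of 0.00. Of 18 NK-type receptor and adaptor genes 6 were higher and 5 lower (median -0.05), of 13 costimulatory receptors 3 and 1 (median -0.09), of 27 glycolysis and hypoxia genes 2 and 1 (median 0.26), and of 20 unfolded protein genes 3 and 1 (median 0.37). Among these, Slc2a3, a glucose transporter gene, had a log2 ratio of 1.38.

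Naive and stem-like T cell genes fell together in members. Of 15 tested, 11 were lower and 0 higher, with a median log2 ratio of -2.09. Tcf7, the transcription factor of stem-like T cells, had 4.98 CPM in members against 43.2 CPM in other gated CD8 cells of the library labelled Dapl1-KO and 7.20 CPM against 76.2 CPM in the library labelled WT (log2 -3.24). S1pr1, the receptor for exit from tissue into blood and lymph, had a log2 ratio of -3.39, Klf2, a transcription factor of resting T cells, -3.13, and the survival gene Bcl2 -2.74. Dapl1 itself was lower in members, at -4.59. Of 18 homing and residency genes 8 were lower and 0 higher (median -0.78), of 20 type I interferon response genes 10 and 0 (median -0.97), and of 12 heat shock genes 6 and 0 (median -0.55). Among these, Hspa1a, an inducible chaperone, had a log2 ratio of -2.14. All 5 melanocytic tumour markers were lower, led by Dct, an enzyme of melanin synthesis, at 3.98 CPM against 332 CPM and 1.62 CPM against 126 CPM. A UMI of these 5 markers was found in 23.1% and 9.29% of members, against 14.4% and 4.78% of other gated CD8 cells, and 0.480% and 0.306% of the others had at least 0.1% of their UMIs from them, against 0 members. The part of tumour RNA in the other differences was not tested.

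Inhibitory receptors were divided. Of 20, 5 were higher and 5 lower (median 0.14). Havcr2 had 147 CPM in members against 72.1 CPM in other gated CD8 cells of the library labelled Dapl1-KO and 122 CPM against 70.6 CPM in the library labelled WT (log2 0.96), and Entpd1, which encodes the ectoenzyme CD39, had a log2 ratio of 1.03. Pdcd1, which encodes PD-1, had 309 CPM against 232 CPM and 282 CPM against 198 CPM (log2 0.52, below 1.5-fold), and Lag3, another inhibitory receptor, had a log2 ratio of 0.49. Tox, which encodes a transcription factor of T cell exhaustion, had 81.7 CPM against 115 CPM and 99.6 CPM against 121 CPM (log2 -0.33, below 1.5-fold). Proliferation genes were mostly not called. Mki67, the gene of the proliferation marker Ki-67, had 132 CPM against 148 CPM and 112 CPM against 111 CPM (log2 -0.02), and of 23 S phase genes 0 were called, with a median of 0.03. Of 23 genes of G2 and mitosis 1 was higher and 0 lower (median 0.06).

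The nearest gated cells by known biology are those with both PD-1 and TIM-3 messages and a share under 1%, 2344 cells in the library labelled Dapl1-KO and 1437 in the library labelled WT. Pdcd1 and Havcr2 chose these cells and were left out of the calls. Against them, edgeR's quasi-likelihood test called 487 of 12383 genes (3.93%) higher and 462 (3.73%) lower in members, with 379 and 582 where TMM scaling was left out and 206 and 133 with DESeq2, which shared 339 of the 949 calls. Gzmc had 5671 CPM in members against 592 CPM in PD-1 TIM-3 cells of the library labelled Dapl1-KO and 4145 CPM against 293 CPM in the library labelled WT (12.3-fold, adjusted p = 8.06e-19). Gzmb was 2.58-fold and Prf1 2.53-fold higher, with log2 ratios of 2.91 for Serpinb9b, 2.58 for Upp1, 2.16 for Il1r2, 2.11 for Ccl9, 1.81 for Serpine2, 1.79 for Areg, 1.67 for Penk and 1.59 for Il2ra. Serpinb9, at 0.38, and Calr, a chaperone of the endoplasmic reticulum, at 0.54, were below 1.5-fold in this comparison. Gzmc, Prf1 and Serpinb9b had been named as markers with the data known, so their rise is a description here too, whatever the p-value. Members were also deeper than these cells, and the edgeR p-values again lean on a spread shared over genes.

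Several genes were lower in members than in PD-1 TIM-3 cells. Ccl5, a chemokine of effector T cells, had 2615 CPM in members against 6130.1 CPM in PD-1 TIM-3 cells of the library labelled Dapl1-KO and 2550.2 CPM against 5489 CPM in the library labelled WT (log2 -1.09). Maf, a transcription factor found in exhausted and helper T cells, had 8.63 CPM against 33.7 CPM and 9.84 CPM against 47.8 CPM (log2 -2.06). Tox had 81.7 CPM against 137 CPM and 99.6 CPM against 151 CPM (log2 -0.59), just past 1.5-fold, and lost the call at a share limit of 0.5%. Cd7, Ifitm3 and Nr4a1 were lower as well, at -1.82, -1.42 and -1.11. Gzma and Gzmk were again lower, at -0.89 and -0.99. Xcl1, which encodes the chemokine XCL1, was called lower at -1.44, but its ratio was -0.47 in the library labelled Dapl1-KO and -3.03 in the library labelled WT. Of 20 type I interferon response genes 1 was higher and 6 lower (median -0.67), of 12 heat shock genes 0 and 3 (DESeq2 did not call Hspa1a), and of 21 cytokines and chemokines 5 and 3 (median 0.25).

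Il7r was higher in members than in PD-1 TIM-3 cells. Il7r, the interleukin-7 receptor chain of naive and memory T cells, had 71.9 CPM in members against 33.3 CPM in PD-1 TIM-3 cells of the library labelled Dapl1-KO and 60.9 CPM against 36.4 CPM in the library labelled WT (log2 1.01). Of 15 genes of that list, Il7r was the 1 called higher and 6 were called lower (median -0.45). Ly6c2 and Ccr7 had log2 ratios of 0.51 and 0.41, below 1.5-fold. DESeq2 did not call the lower values of Tcf7, Klf2 and Dapl1 (adjusted p = 0.198, 0.452 and 0.137). After each cell was thinned to 3000 UMIs, Il7r was found in 15.6% and 20.2% of members, against 8.69% and 9.41% of PD-1 TIM-3 cells. Tox was found in 20.6% and 29.0%, against 34.5% and 33.4%, and Gzmk in 20.6% and 11.5%, against 35.4% and 35.6%. Tcf7 was found in none of the thinned members, against 2.83% and 3.49%. Mki67 or Top2a, both proliferation genes, was found in 40.6% and 32.8% of members, against 44.2% and 38.6%, and none of 23 genes of G2 and mitosis was called (median -0.30).

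**Figure D3:**
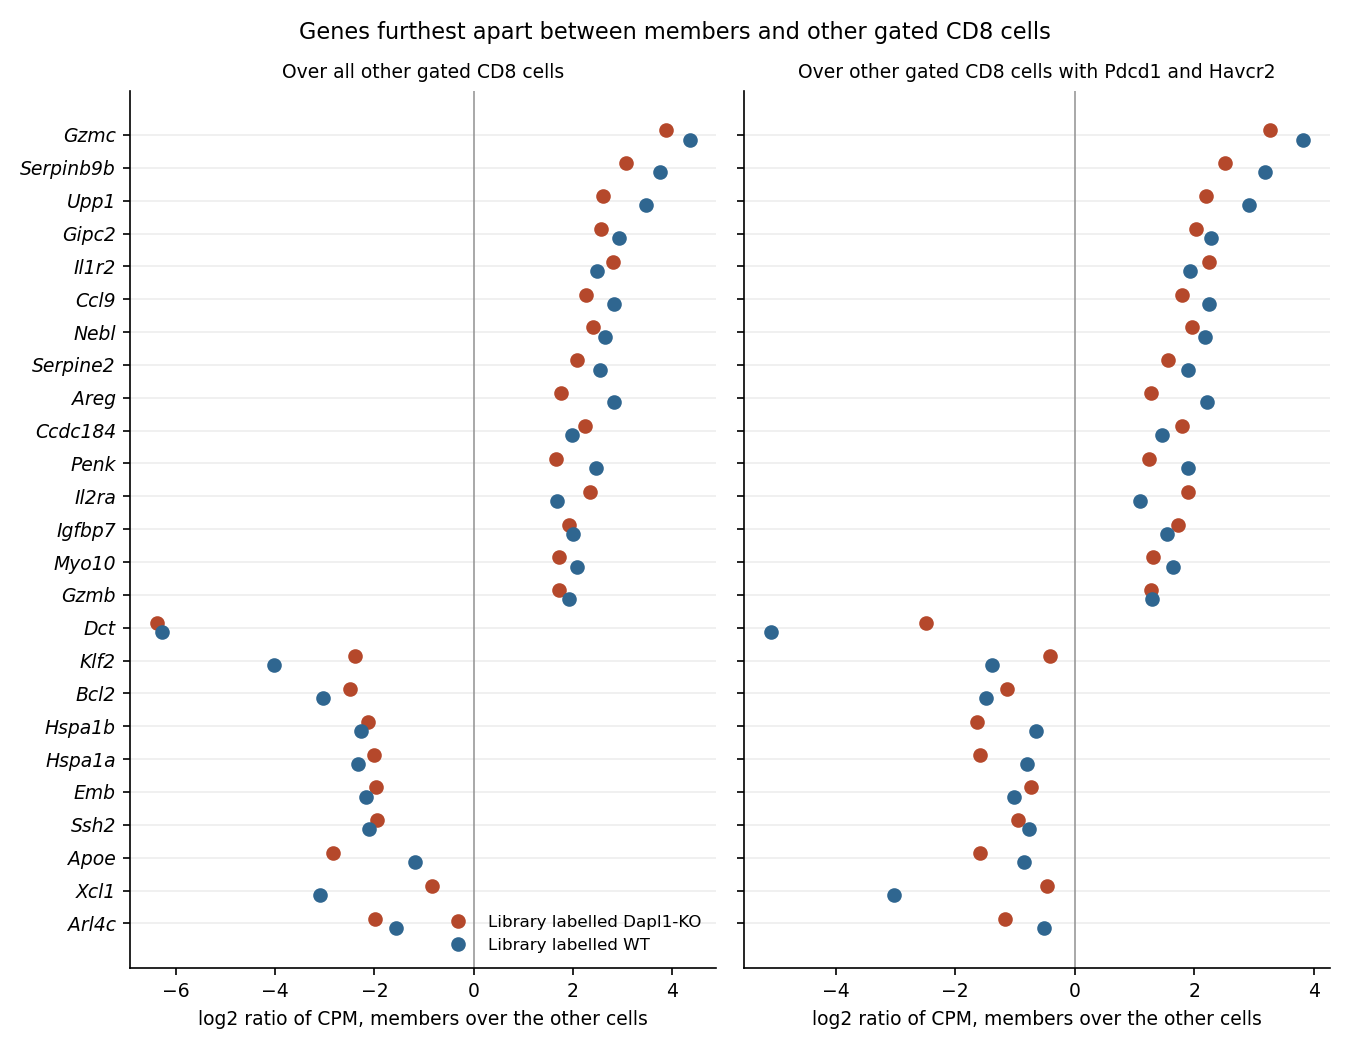
Log2 ratios of CPM, members over all other gated CD8 cells (left) and over PD-1 TIM-3 cells (right), for the genes furthest apart in the first comparison, with 1 point for each library (Dapl1-KO above WT). The points of a gene lie on the same side of 0 in both panels and libraries, and those of Xcl1 lie far apart, at -0.47 and -3.03 in the right panel.

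The 1% limit cuts a continuous range. Just inside it, at 1.0% to 1.1%, were 15 and 11 members, with Gzmb at 4407 CPM and 1301 CPM, Gzmc at 3761 CPM and 1496 CPM and Prf1 at 910.2 CPM and 483 CPM. Just outside, at 0.9% to 1.0%, were 23 and 14 cells, with Gzmb at 3653 CPM and 2102 CPM, Gzmc at 4187 CPM and 515 CPM and Prf1 at 994 CPM and 318 CPM. At a limit of 0.5% there would be 282 and 251 cells, and at 2% 59 and 92.

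Other genes were followed over 5 ranges of the share, from none to 5% and above. Serpinb9b had 19.7 CPM at no count of the 4 genes and 985 CPM at 5% and above in the library labelled Dapl1-KO, and 6.56 CPM and 777 CPM in the library labelled WT. Gzma ran the other way, at 545 CPM and 14.3 CPM, and 203 CPM and 40.4 CPM. Mki67 was highest in the middle, at 114, 177, 172, 139 and 25.8 CPM over the 5 ranges in the library labelled Dapl1-KO and 67.2, 140.1, 163, 120.0 and 35.9 CPM in the library labelled WT. Il7r was high at both ends, at 89.7, 51.3, 42.5, 70.0 and 103 CPM, and 197, 102, 44.1, 56.0 and 106 CPM. The last range holds 9 and 18 cells, so its values rest on few cells.

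**Figure D4:**
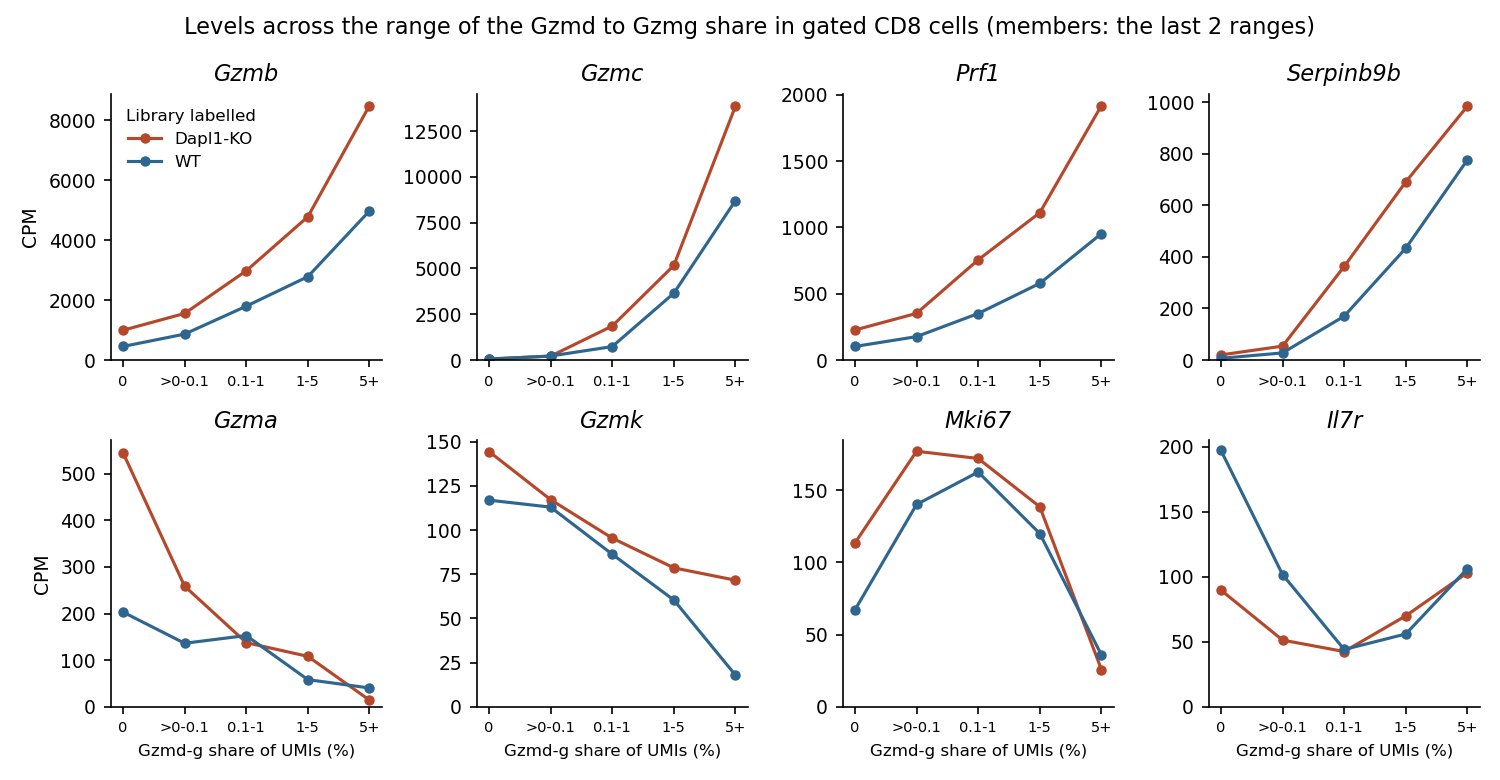
Levels (CPM, linear axes from 0) of 8 genes in gated CD8 cells of the libraries labelled Dapl1-KO and WT, over 5 ranges of the share of UMIs from Gzmd to Gzmg, of which the last 2 hold the members. Serpinb9b reaches 985 CPM and 777 CPM in the last range, Gzma is down to 14.3 CPM and 40.4 CPM there, and Mki67 is highest in the middle ranges.

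Members rich in proliferation messages had less Gzmf and Gzmg than the others. The 74 and 76 members with at least 0.01% of UMIs from Mki67 and Top2a had 10899 CPM and 15330.3 CPM of Gzmf, against 14400.1 CPM and 21473 CPM in the 86 and 107 other members. They had 1285 CPM and 1271 CPM of Gzmg, against 2582 CPM and 1792 CPM. Ccl9 differed the same way, at 273 CPM and 358 CPM, against 486 CPM and 596 CPM. So did Il1r2, at 161 CPM and 137 CPM, against 236 CPM and 263 CPM. The proliferating members were deeper, with medians of 42115.5 and 45120.5 UMIs, against 27383 and 28044. The cells of a library are not replicates, so these values have no test.

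Members made a smaller share of gated CD8 cells in the library labelled Dapl1-KO than in the library labelled WT. The shares were 2.67% (exact 95% interval 2.27 to 3.11) and 3.84% (3.32 to 4.43), a difference of -1.18 percentage points (-1.87 to -0.503). After thinning to 3000 UMIs the rule found 156 of 5507 cells (2.83%) and 187 of 4187 cells (4.47%), with 524 and 535 cells left out as shallower. At a limit of 0.5% the difference was -0.570 points (-1.41 to 0.254), which includes 0. With barcodes found in only 1 library, 9 of 2675 and 3 of 1571 cells remained and the difference was 0.145 points. Whether the share differs between genotypes was not tested, since each label has 1 library.

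Between the members of the 2 libraries, Gzmb, Prf1 and Serpinb9b were past 1.5-fold higher in that labelled Dapl1-KO. All 3 were also higher in the other gated CD8 cells of that library than in those of the library labelled WT. A gene was counted as higher or lower past a 1.5-fold ratio of CPM, with no test. Of 2268 genes with 50 CPM or more, 109 (4.81%) were higher and 45 (1.98%) lower. Gzmb had 4994 CPM in the library labelled Dapl1-KO and 2996 CPM in the library labelled WT, a log2 ratio of 0.74 (0.71 to 0.76). Prf1 had 1158 CPM and 615 CPM (log2 0.91, and 1.78 between members with Y-linked messages and no Xist). Serpinb9b had 708 CPM and 468 CPM (log2 0.60) and Gzmc 5671 CPM and 4145 CPM (log2 0.45, below 1.5-fold). In the other gated CD8 cells Gzmb had 1514 CPM and 791 CPM, and Gzmc 385 CPM and 203 CPM. The values of Prf1 and Serpinb9b in those cells are given above. Whether the members differ from the other cells in these ratios was not tested. Among the genes of the rule the log2 ratio was -0.56 for Gzmf, 0.18 for Gzmd, 0.13 for Gzme and 0.28 for Gzmg. Serpinb9 had 300.4 CPM and 294 CPM (log2 0.03). Gzma had a log2 ratio of 0.86, with 90% of its counts in the library labelled Dapl1-KO in 10 cells, and at a limit of 0.5% the ratio was -0.10.

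Several chemokine and cytokine messages had high ratios, and few cells held much of their counts. Cxcl2, a neutrophil-attracting chemokine, had 140 CPM in the library labelled Dapl1-KO and 3.82 CPM in the library labelled WT (log2 5.19), with 97.5% of its counts in the library labelled Dapl1-KO in 10 members. Ccl1, Xcl1, Ccl4 and Ccl3, chemokines of activated T cells, had log2 ratios of 2.99, 2.40, 2.06 and 1.82. Without the 10 members of each library that had most of the gene, these 4 ratios were -0.47, 1.19, 1.30 and 1.44. Ifng, which encodes interferon gamma, had 510 CPM and 225 CPM (log2 1.18), with 56.1% and 38.1% of its counts in 10 members. The cells overlapped: of the 10 members with most Ccl3, 8 in the library labelled Dapl1-KO and 3 in the library labelled WT were also among the 10 with most Ifng. Of 12 measured cytokines and chemokines at 20 CPM or more, 6 stood past 1.5-fold up and 1 past 1.5-fold down (median 0.81), against 209 (4.55%) higher and 138 (3.0%) lower of all 4595 such genes (median 0.05).

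Some ratios were shared with the other gated CD8 cells and some were not. Ifitm1, an interferon-induced membrane protein gene, had 69.2 CPM and 8.52 CPM in members (log2 3.02). Its log2 ratio was 3.05 in the other gated CD8 cells. Few members held its counts. Without the 10 with most, 16 counts (2.90 CPM) were left in the library labelled Dapl1-KO and 0 in that labelled WT. The ratio of Ifitm1 in members thus rests on those few cells. Klre1, an NK-type receptor gene, had 226 CPM and 78.9 CPM (log2 1.52), and 1.41 in the others. Ly6c2, a surface marker of memory and effector T cells, had 347 CPM and 106 CPM (log2 1.71), and 0.96 in the others. Mcpt8 had a log2 ratio of 1.55 in members and 0.02 in the others, where it had 1.32 CPM and 1.30 CPM. Without the 10 members with most of each gene, log2 ratios in members were 1.09 for Mcpt8, 1.58 for Klre1 and 1.85 for Ly6c2. Hspa1a, at 35.9 CPM and 137 CPM (log2 -1.94), was lower by -2.26 in the others as well, but the ratio was -0.10 when only members with Y-linked messages and no Xist were compared.

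At the low end, Penk had 146 CPM in the library labelled Dapl1-KO and 385 CPM in the library labelled WT (log2 -1.40), and -0.59 in the other gated CD8 cells. Il18rap and Il18r1, the 2 chains of the interleukin-18 receptor, were both lower, at 32.0 CPM and 70.0 CPM (log2 -1.13) and at 37.2 CPM and 74.4 CPM (log2 -1.0). Ccr7, a lymph node homing receptor, had 89.2 CPM and 188 CPM (log2 -1.08). Sytl3, a synaptotagmin-like gene of vesicle traffic, had 58.9 CPM and 112 CPM (log2 -0.92). Without the 10 members that had most of each gene, Penk and Ccr7 stayed lower, at -1.41 and -1.69.

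**Figure D5:**
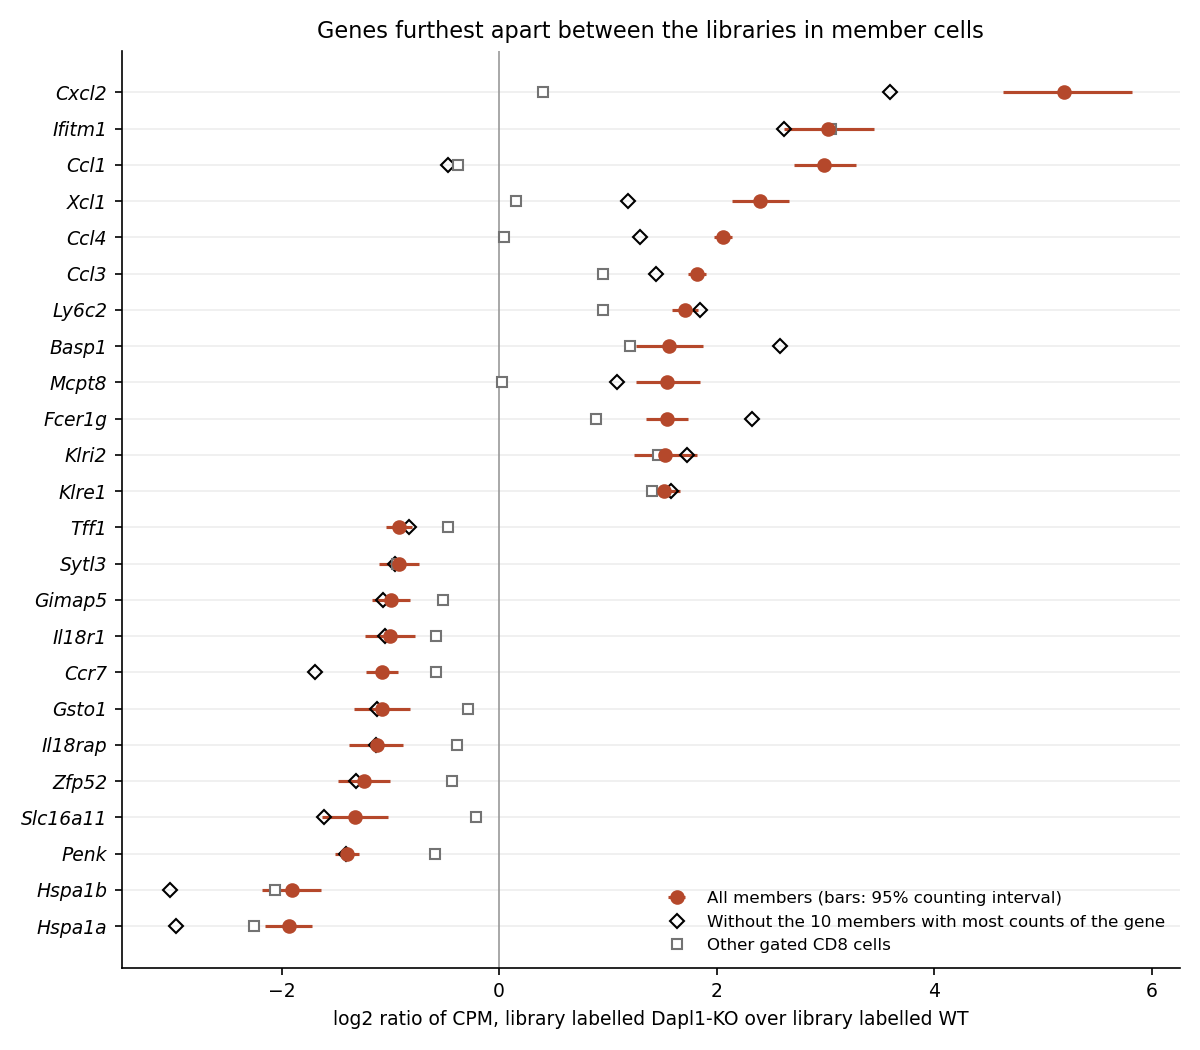
Log2 ratio of CPM in members, library labelled Dapl1-KO over library labelled WT, with exact 95% counting intervals, beside the ratio without the 10 members with most counts of the gene and the ratio in other gated CD8 cells. Cxcl2 is highest at 5.19 and Hspa1a lowest at -1.94, and Ccl1 moves to -0.47 without its 10 leading cells.

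The other gene lists are given by the same count, higher and lower in the library labelled Dapl1-KO. Of 17 unfolded protein and secretory genes there were 7 and 0, with a median log2 ratio of 0.50, among them Hsp90b1 at 0.67 and Pdia4 at 0.76, both folding proteins of the endoplasmic reticulum. Of 11 inhibitory receptor genes 5 were higher and 1 lower (median 0.30), with Vsir, which encodes the checkpoint VISTA, at 0.92 and Ctla4 at 0.89. Pdcd1 and Lag3 were both at 0.13, Havcr2 at 0.27 and Tox at -0.29, below 1.5-fold. Of 19 effector and exhaustion transcription factors, 0 were past 1.5-fold in either direction (median 0.02). Of 20 S phase genes 4 were higher and 0 lower (median 0.35), and of 20 genes of G2 and mitosis 1 and 0 (median 0.21), with Mki67 at 0.24. Of 24 glycolysis and hypoxia genes 4 were higher and 0 lower (median 0.23), of 8 type I interferon response genes 4 and 0 (median 0.61), of 11 NK-type receptor genes 4 and 0 (median 0.39), and of 10 heat shock genes 0 and 2 (median 0.01). The 4 measured granzymes outside the rule counted 2 and 0 (median 0.61), 6 serpins 1 and 0 (median 0.19), and 16 genes of granule machinery 2 and 1 (median 0.04). Of 17 cytokine receptor and feedback genes 3 were higher and 2 lower (median 0.35), of 12 homing genes 4 and 0 (median 0.08), of 10 costimulatory receptors 1 and 0 (median 0.25), and of 6 naive and stem-like genes 2 and 1 (median 0.32).

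The T cell receptor segments were unlike between the members of the 2 libraries. In the library labelled WT, Trbv17, a variable segment of the beta chain, led the beta counts of 27 of 85 members with a leading segment (31.8%, 22.1 to 42.8), against 34 of 1320 other gated CD8 cells (2.58%). In the library labelled Dapl1-KO the most frequent segment of members was Trbv12-1, in 12 of 76 (15.8%), against 9.03% of the others, and Trbv17 led 10 of 76 (13.2%). Members of the library labelled WT led by Trbv17 had 24057 CPM of Gzmf, against 17749 CPM in the 58 members led by another segment, and 307 CPM of Gzmg, against 2683 CPM. They had 341 CPM of Prf1, against 694 CPM. Sequences of the joined receptor were not analysed here.

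Sex-linked messages divided the members of the library labelled WT. In that labelled Dapl1-KO, 146 of 160 members had Y-linked messages and no Xist. In the library labelled WT, 115 members (62.8%) had Xist or Tsix and no Y-linked message, 46 (25.1%) had Y-linked messages and no Xist, and 20 had both. Other gated CD8 cells of that library were 71.5% and 13.7%. Members made 3.40% of the Xist-only and 6.85% of the Y-only gated cells of the library labelled WT, and 3.22% of the Y-only gated cells of the library labelled Dapl1-KO. Of the 27 members led by Trbv17, 17 had Y-linked messages only, 9 had both and 1 had Xist or Tsix only. The differences given above for members led by Trbv17 were not separated from this division. Sex and genotype label cannot be told apart for most cells, and with Y-only members alone 238 genes were higher and 157 lower between the libraries. Of the named genes, 48 then moved by more than 0.32 on the log2 scale and 43 did not. Ccl4 had a log2 ratio of 4.43, Xcl1 4.53, Ccl3 2.66, Ifng 2.20 and Mcpt8 2.79 among these cells, and Ccl1 1.62.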

How the data were processed

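The authors deposited unnormalized UMI counts, whole numbers for each of 32285 genes in each barcode. Per the submitters' processing notes, Cell Ranger 5.0.0 and the builds mm10 and GRCm38 were used. Cells with under 500 genes or over 10% mitochondrial counts were left out. Of shared barcodes only the larger copy was kept, and 21 without a clear larger copy were left out. Scrublet (scanpy 1.11.5) called 0 doublets automatically, so the highest scores (9.48% and 8.85% of cells) were removed only as an alternative. The members and gene lists were chosen with earlier results of these data known. Members totalled 6022830 and 6810141 UMIs in the libraries labelled Dapl1-KO and WT. Counts were summed per library and cell set and divided by the total to give CPM, and a floor of 3 counts stood in for 0. Cell sets were compared with edgeR 4.0.16 (R 4.3.3; TMM, filterByExpr, quasi-likelihood), with DESeq2 1.42.0 as an alternative. Both were run on sums from 2 libraries, which leaves 1 residual degree of freedom. Ratios between labels have exact conditional binomial intervals and no test. Shares have Clopper-Pearson intervals, and their difference a score interval. On simulated data with 1 assumed spread for all genes, edgeR recovered changes of 2-fold and more. That spread was not estimated from these data, so the simulation does not check the calls made here.

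Named genes were the 15 highest and 10 lowest called ratios against other gated CD8 cells, the 10 highest and 10 lowest against PD-1 TIM-3 cells, the 12 highest and 12 lowest between labels (each at 50 CPM), up to 4 members of each list with the largest ratios, and a fixed set of granzyme, checkpoint and marker genes. Genes of the rule, antigen receptor, mitochondrial, ribosomal, haemoglobin and sex-linked genes and unnamed gene models were left out of the ranking. T cell receptor segments, sex-linked genes and cell type markers were named outside it. Alternatives covered the barcode rule, cell filters, the share limit, doublets, scaling, gene filters, the leading cells and each library left out.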

Additional observations from a re-analysis of the deposited data

Results flagged for a closer look

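Ccl1 and Ccl4, both chemokine genes of activated T cells, differed between members and other gated CD8 cells in opposite directions in the 2 libraries. For Ccl1 the log2 ratio of members over other gated CD8 cells was 2.60 in the library labelled Dapl1-KO and -0.77 in the library labelled WT. For Ccl4 the value was 0.84 in the library labelled Dapl1-KO and -1.17 in the library labelled WT. The difference between the libraries was not tested, since each label has 1 library, and for both genes a few members held much of the counts.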

How the results depend on the processing

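No paired analysis was possible because, between the labels, there is 1 library each and a single shared replicate number; members and other cells were compared within each library. The difference in the members' share of gated CD8 cells (-1.18 points) reversed with barcodes found in only 1 library (0.145, from 9 and 3 members) and kept its direction under the other alternatives run. The Gzmf part of the 4-gene counts (-12.1 points) moved to -7.14 with all barcodes, -31.3 with unshared barcodes, -11.1 and -14.6 at limits of 0.5% and 2%, and -11.2 with doublets removed. Between labels, genes higher and lower (109 and 45) numbered 30 and 19 with all barcodes, 598 and 586 with unshared barcodes, 238 and 157 with Y-only members, 209 and 138 at 20 CPM, and 21 and 13 at 2-fold, with 73 lower at a limit of 2%. Lists with a median past log2 0.32 were 7, against 4 with all barcodes. Members against other gated CD8 cells gave 394 higher and 544 lower with DESeq2 (937 of the 1804 calls shared), 43 and 79 with unshared barcodes, and 1310 to 1468 and 2533 to 2644 past 1.5-fold, untested, with a library left out. Against PD-1 TIM-3 cells these were 206 and 133 (339 of 949 shared), 11 and 1, and 1003 to 1019 and 1537 to 1574. Without TMM that split was 379 higher and 582 lower, against 487 and 462. DESeq2 did not call Xcl1 in either comparison, nor Tcf7, Klf2, Dapl1, Cxcl2 and Hspa1a against PD-1 TIM-3 cells.

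With unshared barcodes, where members are few, the ratio between labels reversed for Ccl1 (-3.32), Xcl1 (-1.15), Ccl4 (-2.42), Ccl3 (-2.81), Mcpt8 (-1.73), Fcer1g (-2.32), Hspa1a (0.59), Penk (1.91), Ccr7 (1.13), Tff1 (0.27), Gzma (-2.32), Cxcr6 (-0.93), Mcm7 (-1.73), Pclaf (-2.32), Slc16a3 (-0.51), Creld2 (-0.51), Pdia4 (-1.0), Sdf2l1 (-0.73) and Ifng (-1.79), and for the list medians of cytokines (-1.55), cytokine receptors (-0.15), NK-type receptors (-0.73) and S phase (-0.73). Members over other gated CD8 cells reversed for Areg (-11.15) and Dct (0.20), and over PD-1 TIM-3 cells for Areg (-10.53), Serpinb6a (-0.36), Klf2 (0.67) and Ifitm2 (-0.49). Gzma reversed at a limit of 0.5% (-0.10) and Ccl1 without its 10 leading members (-0.47). The cause was not tested. Ifng lost its call against other gated CD8 cells with all barcodes, and Tox its call against PD-1 TIM-3 cells at a limit of 0.5%. Between 9 and 3 members, depth does not allow a statement on any single gene.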

Other observations

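Other variable segments also differed between members and other gated CD8 cells. In the library labelled WT, Trav14n-3 led the alpha counts of 19 of 94 members (20.2%), against 4.02% of other gated CD8 cells. Of these 19, 14 had Y-linked messages only, 5 had both and 0 had Xist or Tsix only. They overlapped with the Trbv17 cells: Trbv17 led together with Trav14n-3 in 7 of 45 members with a segment of both chains. In the library labelled Dapl1-KO, Trbv13-1 and Trbv13-2 each led 11 of 76 members (14.5%), against 4.05% and 5.54%.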
